A study of Mus musculus with 4 samples.

Results

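The distal SHP binding regions of mouse liver were the peaks on chromosomes 1 to 19 and X whose centre lay more than 1 kb from every annotated TSS and inside no annotated exon. SHP ChIP-seq was performed on livers of wildtype male C57BL/6 mice of 8 to 12 weeks, which had been fasted for 12 h and given vehicle or FGF19 at 1 mg/kg through the tail vein, with livers taken 2 h later. Each treatment was represented by 1 SHP ChIP library with its own input, and chromatin of 3 mice had been pooled before sequencing. No replicate error can therefore be given for any value, and no p-value was computed. Of 1508 peaks with vehicle, 153 were distal, and of 3155 peaks with FGF19, 316 were. The distal peaks comprised 71 intronic and 82 intergenic peaks with vehicle, and 137 intronic and 179 intergenic peaks with FGF19. Together they were 469 of the 4663 peaks in both lists.

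SHP (NR0B2) is an orphan nuclear receptor that has no DNA binding domain, so it is found on chromatin through the proteins that hold it there. FGF19 is a gut hormone released after a meal that represses bile acid synthesis in the liver. Distal regulatory DNA in liver, such as enhancers within introns or between genes, is usually bound by nuclear receptors and other liver factors. Intergenic DNA also carries short genes transcribed by RNA polymerase III, such as those for tRNAs, and the annotation used here, GENCODE M1, lists no nuclear tRNA gene.

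Sequences of distal peaks are shown for the groups on which the results turn. The annotation build is mm9 (NCBIM37), and each sequence is written 5′ to 3′ on the strand named. The first set is tRNA-like genes under distal FGF19 peaks, shown because this group differed in number between the lists. Capitals mark the T loop letters that overlap the B box, the internal promoter element of these genes.
Trp, anticodon CCA (chr11:61221418-61221489, minus strand): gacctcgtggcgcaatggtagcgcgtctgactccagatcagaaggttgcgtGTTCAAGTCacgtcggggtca
Glu, anticodon TTC (chr1:34491657-34491728, minus strand): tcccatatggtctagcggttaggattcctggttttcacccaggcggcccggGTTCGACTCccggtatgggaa
Leu, anticodon AAG (chr14:51683558-51683639, plus strand): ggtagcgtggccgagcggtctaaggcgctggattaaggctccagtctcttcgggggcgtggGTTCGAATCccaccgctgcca
Ala, anticodon AGC (chr13:21314455-21314526, plus strand): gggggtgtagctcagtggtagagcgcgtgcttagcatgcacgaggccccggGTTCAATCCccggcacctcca
His, anticodon GTG (chr2:122201230-122201301, minus strand): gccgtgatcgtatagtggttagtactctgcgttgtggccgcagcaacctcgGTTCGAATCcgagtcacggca
Asn, anticodon GTT (chr3:96301704-96301777, plus strand): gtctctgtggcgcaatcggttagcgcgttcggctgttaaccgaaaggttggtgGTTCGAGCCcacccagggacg

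The second set is DNA at the summits of the strongest and of the most changed distal regions, and at the start of a noncoding RNA that the mm9 annotation lacked. Capitals mark CpG dinucleotides.
Alb, FGF19 summit window (chr5:90901491-90901691, plus strand): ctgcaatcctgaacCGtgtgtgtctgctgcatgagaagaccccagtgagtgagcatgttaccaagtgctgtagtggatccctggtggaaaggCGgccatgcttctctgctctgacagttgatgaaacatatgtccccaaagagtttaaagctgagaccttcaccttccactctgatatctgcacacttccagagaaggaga
Near Rgs8, vehicle summit window (chr1:155467494-155467694, plus strand): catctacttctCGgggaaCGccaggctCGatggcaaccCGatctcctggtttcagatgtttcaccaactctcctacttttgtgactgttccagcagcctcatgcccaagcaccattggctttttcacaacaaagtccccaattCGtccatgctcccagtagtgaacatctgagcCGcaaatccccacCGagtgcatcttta
Near Gpr84, common region (chr15:103135575-103135695, plus strand): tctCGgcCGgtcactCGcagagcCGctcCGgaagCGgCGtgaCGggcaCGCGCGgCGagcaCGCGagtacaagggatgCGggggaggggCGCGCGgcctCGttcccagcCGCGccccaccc
Near Serpina3k, common region (chr12:105584770-105584890, plus strand): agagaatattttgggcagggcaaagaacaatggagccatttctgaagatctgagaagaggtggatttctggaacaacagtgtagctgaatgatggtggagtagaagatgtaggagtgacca
Chaserr start (chr7:80703206-80703356, minus strand): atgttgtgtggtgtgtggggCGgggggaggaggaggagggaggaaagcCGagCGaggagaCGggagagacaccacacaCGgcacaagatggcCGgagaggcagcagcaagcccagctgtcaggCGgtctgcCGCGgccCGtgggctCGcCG

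The third set is exact motif matches near distal summits with 15 bases on either side, and capitals mark the match.
CTCF letters in the Alb peak (chr5:90901554-90901592, minus strand): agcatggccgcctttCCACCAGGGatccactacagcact
CTCF letters, Mmp17 intron (chr5:130092078-130092116, minus strand): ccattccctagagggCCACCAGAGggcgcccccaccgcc
CTCF letters, Enpp6 intron (chr8:48101800-48101838, plus strand): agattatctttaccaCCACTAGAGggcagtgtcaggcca
CTCF letters, Insr intron (chr8:3221303-3221341, plus strand): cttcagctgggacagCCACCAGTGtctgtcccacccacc
NR5A letters, Trim25 intron (chr11:88873043-88873080, minus strand): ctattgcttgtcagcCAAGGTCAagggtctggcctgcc
NR5A letters, Gsk3b intron (chr16:38132471-38132508, plus strand): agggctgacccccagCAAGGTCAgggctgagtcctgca
NR5A letters, near Mup21 (chr4:61794896-61794933, minus strand): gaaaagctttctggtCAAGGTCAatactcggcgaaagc
Direct repeat near Foxk1 (chr5:142843494-142843536, plus strand): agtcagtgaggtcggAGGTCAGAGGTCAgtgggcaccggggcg
HNF4 letters, Ttyh2 intron (chr11:114546413-114546451, minus strand): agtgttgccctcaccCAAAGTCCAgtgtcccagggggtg
CRE letters near Mir30d (chr15:68194825-68194862, plus strand): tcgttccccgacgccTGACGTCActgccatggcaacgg
CRE letters near 1700019O17Rik (chr1:88331121-88331158, plus strand): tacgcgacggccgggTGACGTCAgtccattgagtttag

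The windows show the range of sequence among the distal peaks. The common region near Gpr84 was dense in CpG, and the region near Serpina3k held none in the window shown. The Alb window lay around a summit inside an exon of the gene.

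Distal peaks made up the same small part of both lists. They were 10.1% of the vehicle list (95% interval 8.72 to 11.8) and 10.0% of the FGF19 list (9.02 to 11.1), a difference of -0.130 percentage points (-2.04 to 1.67). Promoter peaks were 1097 with vehicle and 2567 with FGF19, and exonic peaks away from promoters were 258 and 265. Intronic peaks were 46.4% of the distal peaks with vehicle (38.7 to 54.3) and 43.4% with FGF19 (38 to 48.9). Intervals here and below are Wilson intervals for shares and Newcombe intervals for differences, while a share of 0 is given an upper limit of 3 counts of the total, and all cover counting error only. The ChIP libraries behind the lists held 15473647 tags (vehicle) and 13444078 tags (FGF19) once the authors had filtered them, and the inputs held 16164473 and 17367587.

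The distance rule set the edge of the group. With vehicle, 4 distal peaks lay within 100 bp outside the 1 kb limit, at fold enrichments of 3.00 to 4.21, and 6 promoter peaks lay within 100 bp inside it, at 3.56 to 5.99. With FGF19 the numbers were 8 distal peaks, at 2.62 to 5.30, and 14 promoter peaks, at 3.21 to 6.26. Most distal peaks were not at this edge. The median distance from the centre to the nearest TSS was 11.0 kb with vehicle and 8.17 kb with FGF19, and the range from 10 to 50 kb held 45.1% and 38.6% of them.

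Intergenic peaks were more often upstream of the nearest TSS and intronic peaks more often downstream. The class rule partly sets this, since a centre soon after a TSS mostly lies in the gene and is then not intergenic. The split of the distal windows of the genome was not computed. With vehicle, 53 of 82 intergenic peaks were upstream of the nearest TSS, and with FGF19 104 of 179 were. Within 5 kb the FGF19 intergenic peaks were 37 upstream and 14 downstream, and beyond 5 kb they were 67 and 61. Of the intronic peaks, 45 of 71 with vehicle and 84 of 137 with FGF19 were downstream. The first intron held 36 intronic peaks with vehicle and 57 with FGF19, which were 50.7% (39.3 to 62.0) and 41.6% (33.7 to 49.98). The share of intronic windows of the genome in first introns was not computed, so these shares have no background. Intronic peaks fell in 66 host genes with vehicle and 128 with FGF19, and 17 host genes were in both.

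Fold enrichment is the pileup of extended ChIP tags at the summit over the local background set from the input. Distal peaks had a median of 4.13 in both lists, with quartiles of 3.46 and 4.84 for vehicle and 3.51 and 4.70 for FGF19. Promoter peaks had a median of 3.97 in both lists, and exonic peaks had medians of 5.34 and 5.14. By this measure distal peaks did not lie below promoter peaks. Their median pileup was lower, at 20 tags with vehicle and 21 with FGF19, against 24 at promoters in both lists, and so was their median local background, at 4.15 and 4.43 tags against 5.53 and 5.42.

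**Figure D1:**
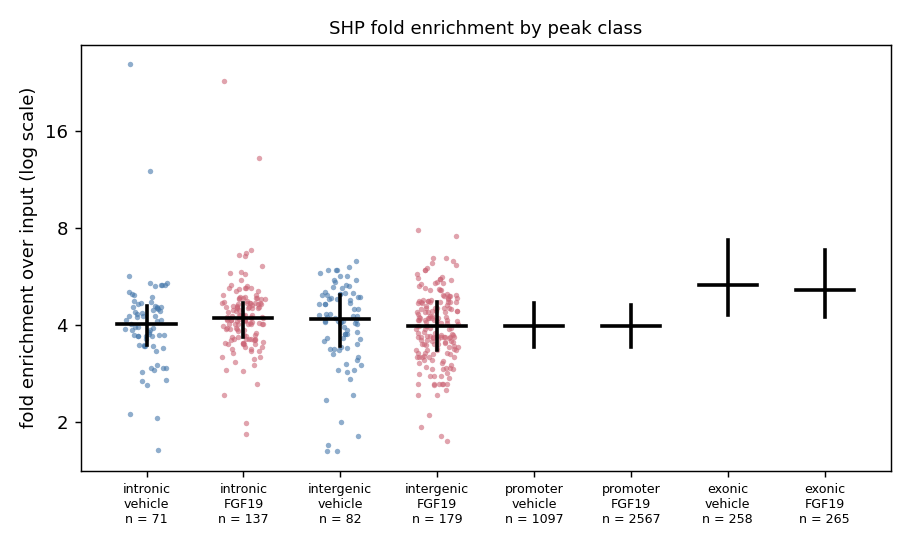
Fold enrichment over input (log scale) of SHP peaks by class and treatment, with each distal peak as a point, the median as a horizontal bar and the quartiles as a vertical bar; promoter and exonic peaks are shown by their bars alone. The distal medians lie between 3.97 and 4.21, and 2 intronic peaks in each list stand above 8.

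By the q-value of the peak caller, distal peaks were placed lower in the vehicle list. They were 3.65% of the quintile with the smallest q (2.05 to 6.42) and 12.6% of the quintile with the largest (9.31 to 16.8). With FGF19 they were 8.40% of the first quintile (6.48 to 10.8) and 13.3% of the last (10.9 to 16.2). The first quintile of the vehicle list held 11 distal peaks among 301, and that of the FGF19 list held 53 among 631. When the FGF19 list was shortened to its 1508 peaks of smallest q, 122 distal peaks remained, 8.09% of it.

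Intronic peaks over albumin were the strongest distal binding in both lists. Alb encodes the main plasma protein, and its intron 11 of 14 held a peak at chr5:90900908-90901838 with vehicle and chr5:90900886-90901855 with FGF19. The pileup was 149 tags with vehicle and 135 with FGF19, and the fold enrichment was 25.9 and 23.0. The centre of the peak lay in the intron, but the peak covered 363 bp of annotated exon and its summit lay in an exon, in both lists. The same held for 7 of 71 intronic vehicle peaks and 15 of 137 intronic FGF19 peaks, whose summit was in an exon.

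Traf5, which encodes an adaptor of TNF receptor signalling, held the next intronic peak. It lay in the first intron, at chr1:193897708-193898381 with vehicle, with 59 tags at the summit in both lists and fold enrichments of 12.1 with vehicle and 13.2 with FGF19. Of the vehicle peak's 36-base words 54.8% occurred elsewhere in the genome, and of its words of 100 bases, the length of the tags, 16.5% did. No other distal peak reached a fold enrichment of 8 in either list.

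Below these, the strongest intronic peaks were not the same in the lists. With vehicle they lay in C4b, a complement gene, at 5.68, in Il31ra, a cytokine receptor gene, at 5.42, and in Trim25, a ubiquitin ligase gene, at 5.41. With FGF19 they lay in Hephl1, a multicopper oxidase gene, at 6.86, in Hpx, which encodes the haem carrier hemopexin, at 6.69, and in Tsc22d3, a glucocorticoid-induced gene, at 6.61. The Hpx region was also a peak with vehicle, but its vehicle peak was centred in an exon and reached 10.0. The other 5 regions were peaks in 1 list only, with 16 to 20 tags at the summit, and 66.3% of the 36-base words of the Il31ra peak but 0% of its 100-base words were repeated.

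The strongest intergenic peaks were close together in strength. With vehicle they lay nearest to Rgs8 at 6.35, Dcpp3 at 6.05, Cpeb4 at 5.95, Wnt7b at 5.94 and Myoz1 at 5.92, and 52.1% of the 36-base words and 20.0% of the 100-base words of the Rgs8 peak were repeated. Cpeb4, which encodes a protein that binds polyadenylation elements in mRNA, and Myoz1 also had a peak with FGF19, at 4.73 and 5.30. With FGF19 they lay nearest to AC134447.1 on chromosome 18 at 7.88, Zfp692 at 7.57, Mesp1 at 6.47, Cmtm6 at 6.46 and a 7SK gene at 6.32, and none of these had a vehicle peak.

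Many distal peaks carried a feature of another kind of region. Each distal peak was put in the first category that it met, in a fixed order. With vehicle, 3 peaks held a tRNA-like gene, 17 lay within 1 kb of a RefSeq gene start that was not in the mm9 annotation, 12 touched an annotated exon, 37 were CpG-island-like and 7 had more than 50% of their 36-base words repeated elsewhere. With FGF19 the numbers were 30, 35, 29, 83 and 4. This left 77 vehicle peaks, 50.3% of the group, and 135 FGF19 peaks, 42.7%, with none of these features.

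A tRNA-like gene was defined as a stretch that folds into the tRNA cloverleaf, with the invariant bases of its loops, and 354 were found in the genome. They covered 19 amino acids. A peak was said to hold or cover such a gene when it shared at least 1 bp with it. The scan was added after the count of B box letters had been seen, so its values describe these lists and carry no test. FGF19 peaks covered 46 of the 354 genes, 13% (9.89 to 16.9), and vehicle peaks covered 5, 1.41% (0.605 to 3.26). The intergenic genes followed the same pattern, with 33 of 227 under an FGF19 peak, 14.5% (10.5 to 19.7), and 3 under a vehicle peak, 1.32% (0.450 to 3.81). Of 58 tRNA-like genes at promoters, 13 lay under an FGF19 peak and 2 under a vehicle peak, and no promoter gene lay under both. Of 68 in introns, 0 did in either list, which allows a share of up to 4.41% (3 counts of the total).

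Seen from the peaks, 30 of 316 distal FGF19 peaks held a tRNA-like gene, 9.49% (6.73 to 13.2), and 3 of 153 distal vehicle peaks did, 1.96% (0.669 to 5.61). All were intergenic, so the share was 16.8% of the 179 intergenic FGF19 peaks and 3.66% of the 82 intergenic vehicle peaks. Such a gene lay within 100 bp of the summit at 28 of 316 distal FGF19 peaks, 8.86%, and 2 of 153 distal vehicle peaks, 1.31%. Of all tiled windows of 201 bp in the distal genome, 0.00338% touched such a gene. In the FGF19 list shortened to its 1508 peaks of smallest q, 23 of 122 distal peaks held one, 18.9%. The first and the second quintile of the FGF19 list by q held 6 and 15 of the 30 peaks, and the last quintile held 1.

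Distal peaks over tRNA-like genes had high tag counts over a high background. Their median pileup with FGF19 was 34 tags, against 21 over all distal FGF19 peaks, and their median local background was 8.27 tags, against 4.43. The median fold enrichment was 3.68, against 4.13. The summit lay within 100 bp of the 5′ end of the gene in 23 of 33 pairs of gene and peak, and the median position was 25 bp inside the gene. Of the 36-base words of these peaks a median of 14% occurred elsewhere in the genome, and the largest share was 22.3%, so most of each peak was unique sequence. Of words of 100 bases, the length of the tags, the median share was 0% and the largest 2.76%.

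**Figure D2:**
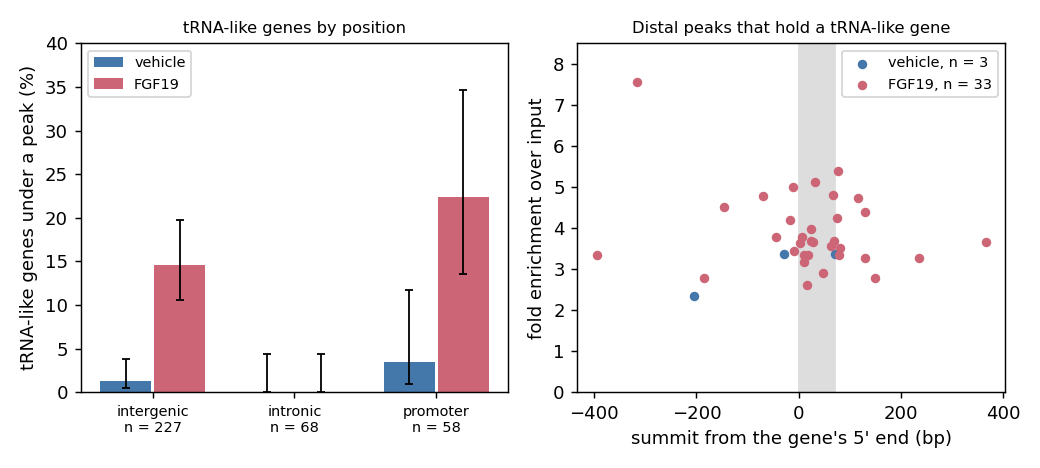
Left, percent of tRNA-like genes under an SHP peak by the position of the gene, with Wilson 95% intervals (at 0, up to 3 counts of the total) that cover counting error only; right, fold enrichment of each distal peak with such a gene against the distance of its summit from the gene's 5′ end in bp, with the gene body shaded. FGF19 peaks covered 14.5% of intergenic and 22.4% of promoter genes and vehicle peaks 1.32% and 3.45%, and most summits lie on or beside the gene.

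The genes under distal FGF19 peaks were spread over 16 amino acids. Arg genes were the most numerous under FGF19 peaks of any class, with 9 of 25, and Tyr genes had 4 of 10. Chromosome 13 held 7 of the 30 peaks within 2231 kb, and chromosome 11 held 7 more. The share of all tRNA-like genes on these chromosomes was not computed, so the counts by chromosome have no background. The His GTG gene on chromosome 2, printed above, had a fold enrichment of 4.21 with 26 tags, and the Asn GTT gene on chromosome 3 had 3.57 with 33 tags, with no vehicle peak at either.

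All 3 distal vehicle peaks over tRNA-like genes were also FGF19 peaks, and all 3 were stronger with FGF19. The Trp CCA gene near Gm12271 went from 3.38 with 25 tags to 5.39 with 37 tags. The Leu AAG gene near Rnase12 went from 2.34 with 26 tags to 4.52 with 35 tags. The summit there lay outside the gene, at -205 bp from its 5′ end with vehicle and -146 bp with FGF19, where negative is upstream. The Glu TTC gene near AC106841.1 went from 3.38 with 25 tags to 4.82 with 32 tags. Both the fold and the tag count were higher with FGF19 at each of the 3, although the FGF19 library was the smaller.

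Some distal peaks lay at gene starts of RefSeq that were not among the annotated starts used here. RefSeq starts were placed on mm9 by exact match of their sequence, and those near distal peaks were more than 100 bp from every annotated start. A start lay within 1 kb of the centre of 17 vehicle peaks, 11.1% (7.05 to 17.1), and 40 FGF19 peaks, 12.7% (9.44 to 16.8). In 14 and 34 of these cases the start was more than 1 kb from every annotated start. Intergenic peaks had one more often than intronic peaks, by 13.3 percentage points with FGF19 (6.21 to 20.2) and 10.22 with vehicle (0.0262 to 20.2). With FGF19 the strongest after the Zfp692 region were the start of Chaserr, a noncoding RNA beside Chd2, with 43 tags and a fold enrichment of 6.24 at a centre 189 bp from the start, and the start of Smco4, with 24 tags and 5.64 at 145.5 bp. With vehicle the strongest were Gm41545 at 6.05, Cpeb4 at 5.95 and Ptma, which encodes prothymosin alpha, at 5.53, the last of these 179 bp from an annotated start.

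CpG-rich sequence was common among the intergenic peaks. A peak was called CpG-island-like with a GC content of at least 50% and a CpG observed over expected ratio of at least 0.6. This held for 48.8% of intergenic vehicle peaks (38.3 to 59.4) and 51.4% of intergenic FGF19 peaks (44.1 to 58.6), and for 15.5% (8.88 to 25.7) and 23.4% (17.1 to 31.1) of the intronic ones. The difference between the classes was 33.3 percentage points with vehicle (18.7 to 45.8) and 28 with FGF19 (17.4 to 37.6). Promoter peaks were CpG-island-like in 87.7% and 93.2% of cases and exonic peaks in 5.43% and 12.8%, and of all windows of the distal genome 0.478% were. Between the treatments the share among distal peaks differed by 5.91 percentage points (-3.48 to 14.8), which counting error alone covers.

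**Figure D3:**
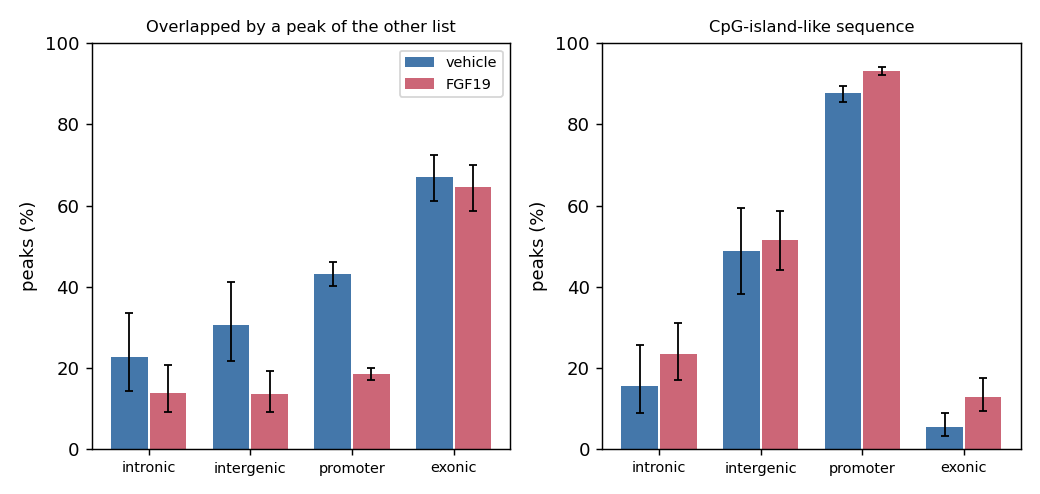
Left, percent of SHP peaks overlapped by a peak of the other list; right, percent with CpG-island-like sequence, by class and treatment, with Wilson 95% intervals that cover counting error only. Intergenic peaks are CpG-island-like in 48.8% and 51.4% of cases, between the intronic and the promoter peaks, and distal peaks are shared with the other list less often than exonic peaks.

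A smaller share of distal than of promoter peaks was found with both treatments. With vehicle 41 of 153 distal peaks shared at least 1 bp with an FGF19 peak, 26.8% (20.4 to 34.3), against 45.5% of all vehicle peaks. With FGF19 43 of 316 shared 1 bp with a vehicle peak, 13.6% (10.3 to 17.8), against 21.8% of all FGF19 peaks. As distal minus promoter, the share differed by -16.2 percentage points with vehicle (-23.3 to -8.17) and -4.82 with FGF19 (-8.50 to -0.356), and as distal minus exonic by -40.3 and -50.9. The intronic and intergenic classes differed by less than counting error in both lists, at 22.5% and 30.5% with vehicle and 13.9% and 13.4% with FGF19. The order of the treatments turned when the FGF19 list was shortened to 1508 peaks, at 19.6% with vehicle and 26.2% with FGF19.

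The distal peaks found with both treatments were often CpG-rich. With vehicle 24 of 51 CpG-island-like distal peaks had an FGF19 counterpart, 47.1% (34.1 to 60.5), and 17 of 102 others did, 16.7% (10.7 to 25.1). With FGF19 23 of 124 did, 18.5% (12.7 to 26.3), and 20 of 192 others, 10.4% (6.84 to 15.5). Among peaks with none of the features counted above, 7 of 77 vehicle peaks and 6 of 135 FGF19 peaks were shared, 9.09% and 4.44%. Shared distal peaks also had more tags, with a median pileup of 28 against 18 for the rest with vehicle and 33 against 20 with FGF19. The part of peak height in the sharing was not tested.

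There were 38 distal regions with a distal peak as the strongest on both sides, 14 intronic and 24 intergenic, and 7 more where the partner was exonic. At the 38, the median log2 ratio of fold enrichment, FGF19 over vehicle, was 0.10, with 24 higher and 14 lower, and over all 678 common regions it was -0.02. It was 0.23 at the intergenic regions and -0.02 at the intronic ones. A rise of at least 1.5-fold was found at 5 of the 38, against 9.44% of all common regions, and a fall of that size at 2, against 13.9%. All 7 were intergenic.

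**Figure D4:**
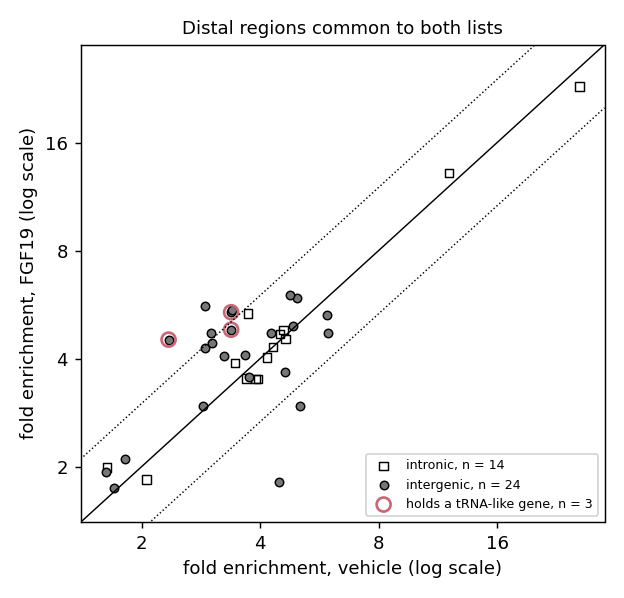
Fold enrichment with FGF19 against vehicle (log scales) at the 38 distal regions common to both lists, 14 intronic and 24 intergenic, with the 3 regions that hold a tRNA-like gene ringed; the solid line marks equality and the dotted lines a change of 1.5-fold. Regions lie mostly between the dotted lines, and the 3 ringed regions are above equality.

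The 5 rises were in unlike places. The region near Serpina3k, a plasma protease inhibitor gene, went from 2.90 to 5.61, but its pileup went from 38 tags to 22 while its local background went from 12.4 tags to 3.10. The region near Gpr84, a receptor for fatty acids, went from 3.39 to 5.45 with 18 and 34 tags, and its background was 4.61 and 5.42. The region near BC021614 went from 3.00 to 4.72 with 25 and 22 tags, and of its 36-base words in the vehicle peak 45.4% were repeated. The Rnase12 and Gm12271 regions are those of the Leu AAG and Trp CCA genes. Of the 5, the Gpr84, Rnase12 and Gm12271 regions thus had more tags with FGF19, and the other 2 had fewer.

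The falls were led by the region near Gm14496, which went from 4.47 with 72 tags to 1.81 with 61 tags while its background went from 15.3 tags to 33.3. Of the 36-base words of its peaks 100% were repeated elsewhere in both lists. Of its 100-base words 54.7% were repeated with vehicle and 60.5% with FGF19. The region near Sf3a3, a splicing factor gene, went from 5.05 to 2.94 with 25 and 27 tags, and its background went from 4.15 tags to 8.52. The log2 ratio of the pileup scaled to library size was -0.04 near Gm14496 and 0.31 near Sf3a3, so neither fall was one of tag counts. Smaller falls were seen near Eif4g2, from 4.64 to 3.66, and near Cpeb4, from 5.95 to 4.73, and Alb stood at 25.9 and 23.0. When the pileup was scaled to the tags of each library in place of fold enrichment, the median log2 ratio of the 38 regions was 0.28, and that of all 678 was 0.20.

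Sequence motifs near distal summits were counted as exact matches on either strand within 100 bp, and compared with the share of all tiled 201-bp windows of the distal genome. Of 22 motifs, the interval of the share lay above that background for 11 with vehicle and 10 with FGF19, and below it for 0 and 1. The tiled windows had a mean GC content of 41.4%, against medians of 54.9% and 55.3% for distal peaks. A match says only that these letters occur in the window.

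The nuclear receptor half-site AGGTCA was near the background over all distal peaks, with a higher share at intronic than at intergenic peaks. The intervals of these classes overlapped with vehicle and did not with FGF19. It was found at 21 vehicle peaks, 13.7% (9.16 to 20.1), and 40 FGF19 peaks, 12.7% (9.44 to 16.8), against 11.0% of the windows. At intronic peaks it stood at 18.3% with vehicle (11.0 to 28.8) and 19% with FGF19 (13.3 to 26.4), against 11.6% of intronic windows. At intergenic peaks it stood at 9.76% (5.03 to 18.1) and 7.82% (4.72 to 12.7), against 10.7% of intergenic windows. Among windows with a GC content of at least 50% the shares were 11.3%, 10.6% and 13.9%. Extended sites of single receptor families, which contain this half-site except for that of HNF4, were rare. The NR5A letters CAAGGTCA, read by LRH-1, a known partner of SHP, were found at 6 vehicle peaks, 3.92% (1.81 to 8.29), and 7 FGF19 peaks, 2.22% (1.08 to 4.50), against 1.08%. At a GC content of at least 50% the shares were 1.74% with vehicle and 2.31% with FGF19, against 1.45%.

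Other receptor sites were found at a handful of distal peaks. The NR4A letters AAAGGTCA were at 5 vehicle and 3 FGF19 peaks, 3.27% and 0.949%, against a background of 1.13%. The HNF4 letters CAAAGTCCA were at 2 vehicle peaks, 1.31%, and 0 FGF19 peaks, against 0.252%. Half-sites in direct repeat with 1 base between, as bound by HNF-4 and by RXR dimers, were at 1 peak in each list, the common region near Foxk1 printed above, against 0.0322%. Inverted repeats with 1 base between, the FXR type, and direct repeats with 4, the LXR type, were found at 0 distal peaks, and in 0.00168% and 0.00754% of windows. A count of 0 allows shares of up to 1.96% with vehicle and 0.949% with FGF19 (3 counts of the total). Peaks with any extended site were 12 of 153 with vehicle and 11 of 316 with FGF19, 7.84% and 3.48%. The share of windows with any of these sites was not computed, so these 2 shares have no background.

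With vehicle the strongest peak with an extended receptor site lay near Wnt7b, at a fold enrichment of 5.94 with 22 tags. The strongest with FGF19 lay in an intron of Hephl1, at 6.86 with 19 tags. NR5A letters lay in the Wnt7b peak and, also with vehicle, in the fourth intron of Trim25, at 5.41 with 16 tags. They lay in the second intron of Gng7 too, at 4.52 with 16 tags. With FGF19 they lay in the first intron of Gsk3b, the kinase of glycogen synthase, at 4.64 with 18 tags, and near Mup21, a major urinary protein gene, at 4.39 with 17 tags. Of the 6 vehicle and 7 FGF19 peaks with NR5A letters 0 were shared with the other list, numbers too small to set against the 26.8% and 13.6% of all distal peaks. The HNF4 letters in the first intron of Ttyh2 belonged to a common region, at 4.32 with vehicle and 4.31 with FGF19.

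The CTCF core CCACNAGNG, of the insulator protein, was among the most frequent of the longer motifs. It was found at 14 vehicle peaks, 9.15% (5.53 to 14.8), and 24 FGF19 peaks, 7.59% (5.16 to 11.1), against 1.90% of windows. At a GC content of at least 50% it stood at 8.70% with vehicle and 9.26% with FGF19, against 3.54%. The share was also larger than at promoter peaks, 3.19% and 3.39%. Examples were the Alb peak and, with FGF19, peaks in introns of Mmp17, a matrix protease gene, at 5.22, Enpp6, a choline phosphodiesterase gene, at 4.68 and Insr, the insulin receptor gene, at 4.67.

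Letters typical of promoters were also found at distal peaks. The SP1 letters CCCCGCCCC were at 9 vehicle peaks, 5.88% (3.13 to 10.8), and 28 FGF19 peaks, 8.86% (6.20 to 12.5), against 0.276%, and at 17% and 16.9% of promoter peaks. At a GC content of at least 50% they were at 6.96% and 12.5% against 1.13%. The E-box CACGTG was at 6.54% (3.59 to 11.6) and 7.28% (4.90 to 10.7) against 1.90%, and at that GC content at 6.96% and 8.33% against 3.31%. The CRE letters TGACGTCA were at 5 peaks in each list, 3.27% (1.4 to 7.42) and 1.58% (0.678 to 3.65), against 0.0995%. The CRE letters printed above lay in common regions near Mir30d and 1700019O17Rik. The ETS letters CCGGAAG were at 2.61% and 2.22% against 0.498%, and the NRF1 letters GCGCATGCG at 1.31% and 0.633% against 0.0232%. At a GC content of at least 50% ETS letters were at 3.48% and 2.78% against 1.52%, CRE letters at 3.48% and 2.31% against 0.282%, and NRF1 letters at 1.74% and 0.926% against 0.0786%.

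The B box letters GTTCGANNC differed between the lists. They were found at 1 vehicle peak, 0.654% (0.115 to 3.61), and at 23 FGF19 peaks, 7.28% (4.90 to 10.7), against 0.822% of windows. Of the 23, 21 were intergenic. At a GC content of at least 50% the letters were at 0.870% with vehicle and 4.17% with FGF19, against 1.57%. This motif overlaps the T loop used to define the tRNA-like genes and is not independent of them.

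Letters of liver and inflammatory factors and other general factors varied in how they stood to the background. The forkhead letters TGTTTAC were at 5.88% (3.13 to 10.8) with vehicle and 3.48% (1.95 to 6.12) with FGF19 against 3.02%, and at a GC content of at least 50% at 5.22% and 3.70% against 1.81%. The C/EBP letters TTGCNNAA were at 9.80% and 9.18% against 9.49%, and the AP-1 letters TGANTCA at 6.54% and 4.75% against 6.01%. At a GC content of at least 50% C/EBP letters were at 7.83% and 7.87% against 5.49%. AP-1 letters were there at 5.22% and 4.63% against 4.92%. The STAT letters TTCNNNGAA were at 3.92% (1.81 to 8.29) and 3.48% (1.95 to 6.12) against 7.55%, the one motif whose FGF19 interval lay below the background. At a GC content of at least 50% STAT letters were at 3.48% and 2.78% against 4.43%, a background within the FGF19 interval over all distal peaks. The NF-Y letters ATTGGC were at 9.80% (6.03 to 15.5) and 9.18% (6.47 to 12.9) against 6.11%, and at a GC content of at least 50% at 11.3% and 10.6% against 5.66%. The YY1 letters AANATGGC were at 7.19% and 5.38% against 4.48%, and at a GC content of at least 50% at 7.83% and 4.63% against 5.90%. The SREBP letters TCACCCCAC were at 0 and 2 peaks against 0.175%, and the ZBTB33 letters TCTCGCGAG at none against 0.00149%.

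**Figure D5:**
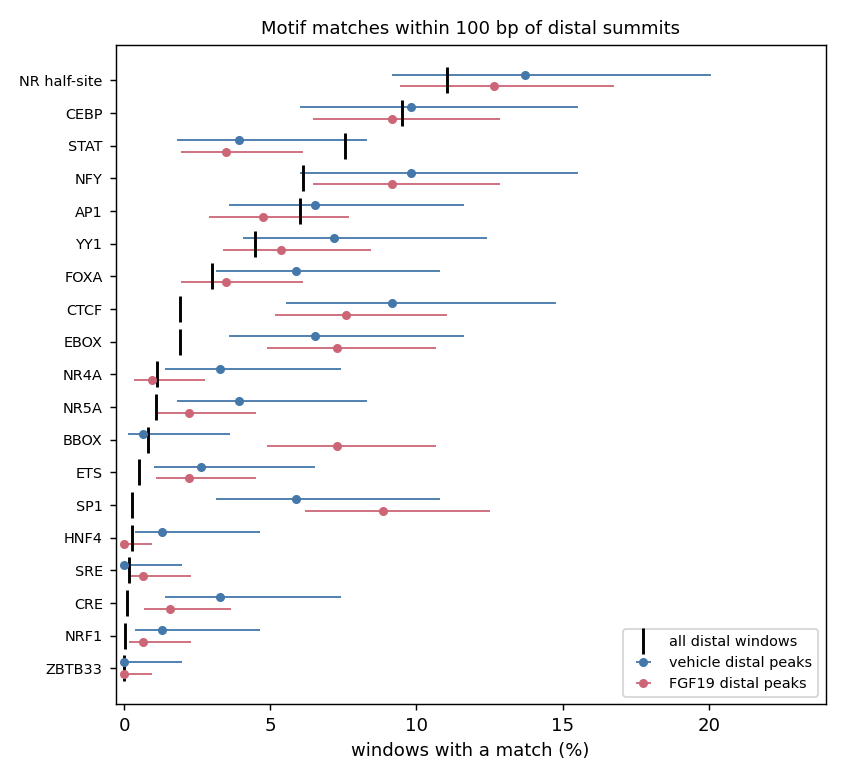
Percent of distal peaks with an exact motif match within 100 bp of the summit, with Wilson 95% intervals (at 0, up to 3 counts of the total) that cover counting error only, beside the percent of all tiled windows of the distal genome (black ticks); the 3 half-site repeats, with at most 1 peak in each list, are left out. CTCF, SP1, E-box and CRE letters lie above the ticks in both lists, and B box letters in the FGF19 list alone.

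The background for gene lists is the share of all annotated protein-coding genes, of which distal peaks named 0.531% with vehicle and 1.07% with FGF19. Genes of 5 lists were counted as host of an intronic peak or nearest gene of an intergenic one, over all 153 vehicle and 316 FGF19 peaks. Of 42 plasma protein genes, 4 had a distal vehicle peak (Alb, Ambp, C3 and Serpina3k) and 6 a distal FGF19 peak (Ahsg, Alb, C3, Fga, Hpx and Serpina3k), with 5 and 11 peaks in all. These were 9.52% and 14.3% of the list. The median fold enrichment of these peaks was 4.42 and 4.58, against 4.13 over all distal peaks of each list. Most were intronic, 4 of 5 and 10 of 11. Of these intronic peaks, 4 with vehicle and 8 with FGF19 touched an exon, and 3 and 7 had their summit in one.

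Hpx held the most intronic FGF19 peaks of any gene, with 4. They lay in introns 9, 6, 7 and 4 of 9, at fold enrichments of 5.84, 6.69, 3.32 and 3.53, with 52, 55, 28 and 25 tags, and the first pair overlapped vehicle peaks of 8.16 and 10.0 that were centred in exons. Fga, a fibrinogen chain gene, had 34 tags at 4.13 in intron 4, and Ahsg, the fetuin gene, had 29 tags at 4.55 in intron 1, both with FGF19 alone. Ambp, the gene of a plasma carrier and protease inhibitor, had 19 tags at 4.42 in intron 1 with vehicle alone.

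Bile acid and sterol genes are the best known targets of SHP. Of 38 listed, 37 of them annotated, 0 had a distal vehicle peak, and 1, or 2.70%, had a distal FGF19 peak, the intron 9 peak of Abcc2, which encodes a bile canalicular transporter, with 11 tags and a fold enrichment of 4.17. Of 46 nuclear receptor genes, Hnf4a and Nr1d1 had an intronic vehicle peak, at 5.35 with 15 tags and 3.00 with 25 tags. With FGF19 Nr4a3 had an intergenic peak at 5.54 with 28 tags, and Rarg and Rara, retinoic acid receptor genes, intronic peaks at 4.82 with 15 tags and 4.30 with 25 tags. Of these 5 peaks, 2 with vehicle and 3 with FGF19, 0 were shared with the other list. These numbers are too small to set against the shares of all distal peaks, 26.8% with vehicle and 13.6% with FGF19.

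Of 23 genes of glucose and energy metabolism, 1 had a distal vehicle peak and 4 a distal FGF19 peak. Irs1, the insulin receptor substrate gene, had a peak in its intron with each treatment, but at different places, with 18 tags at 3.93 with vehicle and 22 tags at 2.42 with FGF19. With FGF19 Insr had 29 tags at 4.67 in intron 2, Igfbp1 had 20 tags at 4.34, and Pck1, the gluconeogenic carboxykinase gene, had 2 intronic peaks at 4.27 and 4.25 that vehicle peaks overlapped at 4.41 and 3.77. Of 29 liver transcription factor genes none had a distal FGF19 peak.

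Distal peaks with FGF19 stood more often with a promoter peak of the same gene. The host or nearest gene also had a promoter peak for 61 of 316 distal FGF19 peaks, 19.3% (15.3 to 24), and for 10 of 153 vehicle peaks, 6.54% (3.59 to 11.6), a difference of 12.8 percentage points (6.32 to 18.3). The FGF19 list also held more promoter peaks, 2567 against 1097, and the part of that number in the difference was not tested. Another peak lay within 10 kb of 69 distal FGF19 peaks, 21.8% (17.6 to 26.7), and of 22 distal vehicle peaks, 14.4% (9.69 to 20.8). This difference was 7.46 percentage points (-0.227 to 14.2), which counting error alone covers. Over the peaks of all classes the share was 15.28% with FGF19 and 15.98% with vehicle. In all, the distal peaks named 142 genes with vehicle and 288 with FGF19, and 47 genes were in both sets, 33.1% and 16.3% of them. By the same rule the peaks of all classes named 1363 and 2882 genes, and 652 were in both, 47.8% and 22.6%.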

How the data were processed

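Chromatin from livers of 3 mice per treatment was pooled, so the vehicle and the FGF19 group were each 1 SHP ChIP library with an input. According to the submitters' processing notes and the study's methods, reads were aligned to mm9 with Bowtie 1.0.0 after CASAVA 1.8.2, and the authors called peaks in each ChIP library against its input with MACS2 2.0.10.20130501 at a q-value of 0.05. The authors deposited, for each peak, its summit pileup (a signal, in extended tags), its fold enrichment (a ratio of ChIP to input), and its p-value and q-value as −log10. The larger library of each pair had been scaled down to the smaller one.

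From these lists, peaks were classified by their centre against all 95414 GENCODE M1 transcripts. Fold enrichment is the pileup plus 1 over the local background plus 1, and the background given here was worked back from it. Peaks were treated as common when they shared at least 1 bp, and a common region was given by its strongest peak on each side. Base composition and motifs were read from the mm9 genome, with the summit plus 100 bp on either side as the motif window. RefSeq gene starts were taken from tables of a later build and placed on mm9 where their 50 bases matched exactly once, which held for 30813 of 32851 starts. A word of 36 bases was repeated when it occurred elsewhere in the genome on either strand. tRNA-like genes needed 5 T stem pairs, 5 anticodon stem pairs and 6 of 7 acceptor stem pairs with conserved loop bases. Sequence scans used numba 0.67.0 and numpy 2.4.6 under Python 3.11.15, intervals scipy 1.17.1, tables pandas 2.3.3 and plots matplotlib 3.10.9. The scans were tested on simulated data.

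With 1 library per treatment there was no replicate spread and no test between treatments. Shares are given with Wilson 95% intervals and differences with Newcombe intervals, which cover counting error only. The members, gene lists and motifs were chosen with earlier results of these data known. Peaks were named by fixed rules, namely the 5 strongest per class and list, the 5 largest rises and falls among common regions, and the 5 strongest per list with a gene list member, an extended receptor site or a RefSeq start. Further examples were picked after their values were seen. These were peaks with a tRNA-like gene, a CTCF or CRE match, a microRNA gene, a high pileup or repeated words. They also included Fos, Fosb, Slc38a2, Hpx, Mup21, the direct repeat near Foxk1 and further gene list members. Alternatives comprised other TSS distances, summit in place of centre, coding transcripts only, a q-value of 0.01, other overlap rules, windows of 50 and 200 bp, stricter CpG limits, scaled pileup and a shortened FGF19 list. A few genes and sequences are not reported here.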

Additional observations from a re-analysis of the deposited data

Results flagged for a closer look

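The FGF19 list held 7 peaks on the mitochondrial chromosome, which lie outside the distal regions described above, and the vehicle list held 0. Their pileups were 459 to 520 tags at fold enrichments of 1.25 to 1.5. They stood out because they are peaks in a part of the lists that no comparison used. A level for vehicle is not given there, since only peaks are listed, and no difference was tested.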

How the results depend on the processing

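Of 171 values recomputed under alternatives, 139 stayed near the reported value and 32 did not, the latter listed here. A share had to stay within its counting interval, a number of peaks within 1.5 times, and a median within its 95% interval over the peaks or regions. With TSS limits of 500 bp, 2 kb and 5 kb, the distal share of the FGF19 list, 10.0% as reported, became 12.2%, 8.40% and 6.43% (203 peaks), and at 500 bp and 5 kb that of the vehicle list became 12.7% and 7.23%. With coding transcripts only both shares were 12.1%, and with the FGF19 list shortened its share was 8.09% (122 peaks). Intronic peaks with FGF19 became 36.9% at 5 kb and 37.4% with coding transcripts. The overlap of vehicle peaks became 19.6% with the shortened list and 20.3% with summits at most 100 bp apart, and that of FGF19 peaks became 26.2% with the shortened list. CpG-island-like peaks became 26.1% with vehicle and 32.3% with FGF19 under the strict limits of 55% and 0.65. With FGF19 they were 46.4% at 500 bp and, in an alternative chosen after seeing the data, 33.7% without peaks at RefSeq starts. In windows of 50 and 200 bp on either side of the summit, half-sites were at 6.54% and 22.2% with vehicle and 7.59% and 23.4% with FGF19. Such shares rise with window length by design, and no background was computed for these lengths. NR5A letters were at 4.75% with FGF19 in 200 bp. In 50 bp CTCF letters were at 4.58% and 4.43% and B box letters at 0 and 3.48%, and B box letters with vehicle were also at 0 with TSS limits of 2 and 5 kb, from 1 peak. tRNA-like genes rose to 18.9% of distal FGF19 peaks in the shortened list, also chosen after seeing the data. The median log2 ratio of common regions was 0.28 with scaled pileup, from 0.10. For the remaining moves the cause was not tested.

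No paired analysis was possible because each treatment has 1 library, and for the same reason no value was recomputed without a replicate. The repeat masking of the genome used here was not marked in its letters, so the share of summits in masked repeats and its alternatives were not run. The lists hold only peaks past the q-value threshold, and tags of a region missing from a list were not seen. Median pileups were 20 and 21 tags, and each interval covers counting error only.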

Other observations

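MicroRNA genes were the nearest gene of 12 of 153 distal vehicle peaks and 9 of 316 distal FGF19 peaks, of which 8 in each list were intergenic and 3 in each list were common. Of these, 4 vehicle and 5 FGF19 peaks were CpG-island-like. The share over all peaks or windows was not computed, so the counts have no background. The common ones included the region of the Glu TTC gene near AC106841.1. The region near Mirlet7a-1, a let-7 microRNA gene, had a fold enrichment of 2.90 with 26 tags with vehicle and 4.27 with 30 tags with FGF19. The region near Mir30d had 3.03 with 31 tags and 4.41 with 41 tags. The peak nearest to Mirlet7c-2 was found with vehicle alone, at 5.29 with 16 tags, and its centre lay 587.5 bp from the RefSeq start of Lncppara. The peak nearest to Mir193b was found with FGF19 alone, at 4.78 with 26 tags. It lay 12.3 kb from the annotated start and held the Thr CGT tRNA-like gene. Near Mir122a, the gene of the most abundant liver microRNA, an FGF19 peak lay 4.6 kb from the annotated start, at 3.19 with 17 tags.

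Some common distal regions, picked after their values were seen, were as follows. The region nearest to Fos, a component of AP-1, lay 18.6 kb from its annotated start with vehicle and stood at 2.86 with 32 tags with vehicle and 2.96 with 34 tags with FGF19. The peak in the Fosb intron stood at 4.64 and 4.54. The region nearest to Slc38a2, an amino acid transporter gene, stood at 4.78 with 28 tags and 6.02 with 47 tags.

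Some distal peaks had very many tags and little enrichment. A pileup over 100 tags was found at 6 vehicle and 5 FGF19 peaks, Alb included. Near AY036118, 3 vehicle peaks had 359, 356 and 373 tags at fold enrichments of 1.62, 1.81 and 1.63, and 2 FGF19 peaks had 436 and 433 tags at 2.10 and 1.93. The Pxmp3 region had 191 and 201 tags at 1.70 and 1.75, and the Filip1l region 107 and 132 tags at 1.63 and 1.99.

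More than 50% of the 36-base words were repeated elsewhere in 8 vehicle and 5 FGF19 distal peaks, against 13.9% of 11890 windows spread over the distal genome. For words of 100 bases, the length of the tags, this held for 1 peak in each list, the region near Gm14496, against 6.14% of the windows. The vehicle peak near Gm15068, with 95 tags at 2.00, had 100% of its 36-base words and 44.9% of its 100-base words repeated.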
